A study of Mus musculus with 18 samples.

Results

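Long intergenic noncoding RNA (lincRNA) genes were taken as the genes of type lincRNA in the GENCODE vM1 annotation of the mouse genome build mm9, without Gas5 and the Snhg genes. There were 1267 of them, out of 24970 annotated genes with a splice junction. A gene was listed in a library when at least 1 assembled spliced transcript of that library shared a splice junction with it on the same strand, and its level was the sum of the FPKM (fragments per kilobase of transcript, scaled to the number of mapped fragments) of those transcripts. By this rule 349 lincRNA genes (27.5%) were listed in at least 1 library, out of 15392 genes of all types, and 918 were listed in none. The tests used the 251 lincRNA genes that reached 1 FPKM in at least 3 libraries, among 14088 such genes of all types. The filter can be passed through 1 group alone, so the 98 listed genes that did not pass are not described by those tests.

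The libraries came from wild type adult C57BL/6 mice. Pachytene spermatocytes, round spermatids and elongating spermatids were separated by sedimentation with cycloheximide, which stalls ribosomes, in the buffers. Cytoplasmic lysates were split on a sucrose gradient into light ribonucleoprotein particles (RNP), which hold RNA that is not on ribosomes, and polysomes, which carry RNA under several ribosomes. Each of the 6 combinations of stage and fraction had 3 libraries, made with a strand-specific total RNA kit. Testes of several animals were pooled for a purification and the elongating preparation was the least pure by morphology. Monosomes and nuclei were not in the libraries, so an RNA kept in the nucleus was not measured.

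LincRNAs are transcribed from their own loci outside protein-coding genes, spliced and mostly polyadenylated like messenger RNA, and have no long conserved reading frame. Some act in the nucleus on chromatin, some bind proteins or microRNAs in the cytoplasm, and many are also found on ribosomes. The testis expresses more of them than most tissues, chiefly in meiotic and haploid germ cells.

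A lincRNA gene was recognised here by its splice junctions, so the exon joints that carry the main results are shown, read from the mm9 genome. Each is the last 15 bases of the upstream exon in lower case followed by the opening 15 bases of the downstream exon in capitals, 5′ to 3′ on the strand of the gene.
1700003G18Rik, intron chr7:123225601-123230140, minus strand: cagtactctgagcacGGCTTTCTCGACAGA
1700003G18Rik, intron chr7:123230270-123232626, minus strand: atcatctatgtggggGAGTACTGATATTTT
9330151L19Rik, intron chr12:70298603-70298714, plus strand: agcggtatggatatgGGTCTTGGCGTTCCT
AA543186, intron chr2:25184242-25187667, minus strand: actgcccactgtccgGCATGTATGCATACC
A030009H04Rik, intron chr11:69154561-69154660, plus strand: cgttgcctagcaatgTGCTCTACTGTCCAG
Wbscr25, intron chr5:135468862-135472428, minus strand: gaatggtgacctcagGTATGTCCGACCTCC
D830044I16Rik, intron chr7:134116422-134117966, minus strand: tctcctcgtgaaaagGGACCACTCCCCAAC
Both joints of 1700003G18Rik were assembled in 9 libraries, that of 9330151L19Rik in 8, that of AA543186 in 3, that of A030009H04Rik in 16, that of Wbscr25 in 14 and that of D830044I16Rik in 18. Over the lincRNA genes, 926 of 3889 annotated introns were assembled in at least 1 library, and 98.2% of those 926 began with GT and ended with AG on the annotated strand, against 88.9% of the 2963 that were not assembled.

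The number of lincRNA genes listed in a library ranged from 80 in round RNP replicate 2 to 215 in pachytene polysome replicate 1. Replicates 1 to 3 listed 170, 107 and 92 in pachytene RNP, 215, 188 and 154 in pachytene polysomes, and 160, 80 and 139 in round RNP. They listed 167, 112 and 164 in round polysomes, 159, 129 and 175 in elongating RNP, and 186, 170 and 186 in elongating polysomes. Most groups thus overlapped, though elongating polysomes lay wholly above round polysomes and round RNP. In 9 comparisons between groups the lowest p of an exact two-sided permutation test was 0.1 (adjusted p = 0.771 over 18 tests). That is the smallest p that 3 against 3 can give, so none could pass a threshold of 0.05. LincRNA genes held 0.174% to 0.920% of the FPKM of spliced transcripts, and that share could not pass in the same 9 comparisons either (adjusted p of at least 0.771, exact permutation test). These tests therefore do not decide whether the groups differ.

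**Figure D1:**
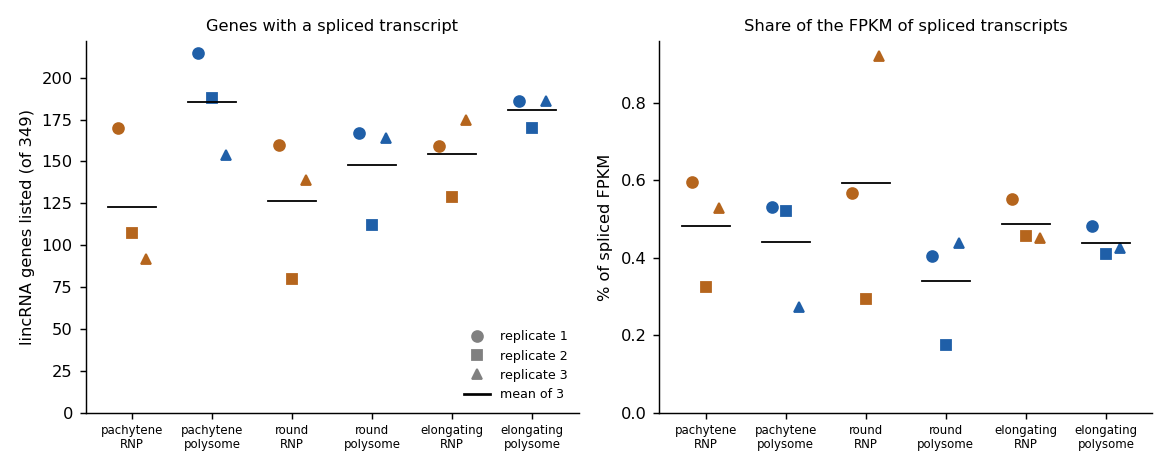
Number of lincRNA genes with a spliced transcript (left, of 349) and their share of the FPKM of spliced transcripts (right, %) in each of the 18 libraries. Points are libraries, with the shape giving the replicate number, and bars are means of 3. The numbers of genes listed overlap between most groups, though elongating polysomes lie wholly above round polysomes and round RNP. The round libraries of replicate 2 list 80 and 112 genes. The highest share, 0.920% in round RNP replicate 3, includes 1042 FPKM from 1 short transcript of Speer7-ps1.

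Libraries stood apart in ways that touch these values. Both round libraries of replicate 2 carried more Sertoli cell markers (18 genes, summed FPKM of 1504 and 3118, against 90.9 to 314 in the other round libraries) and fewer elongating spermatid markers (13 genes, 238 and 209, against 1635 to 5677). Their round spermatid markers (10 genes) were low too, at 90.0 in RNP and 193 in polysomes, against 606 to 1430. Pachytene markers (12 genes) were highest there, at 1274 against 806 and 861 in RNP and 2732 against 1302 and 1715 in polysomes. So were spermatogonial markers (7 genes), at 130 against 40.1 and 35.4 in RNP and 353 against 48.5 and 97.1 in polysomes. Sertoli sums were uneven in pachytene cells, at 444, 1857 and 167 in RNP replicates 1 to 3 and 483, 1554 and 2012 in polysomes. The Sertoli list includes Clu, which the paper describes as ubiquitous. The elongating markers were also uneven in pachytene libraries, at 3206, 155 and 905 in RNP replicates 1 to 3 and 1911, 209 and 638 in polysomes, and the elongating libraries held 8589 to 33564. Tssk6 and Hils1, of the elongating list, and Tssk1 and Spaca4, of the 10 round spermatid markers, were listed at 0 in every library. All 12 pachytene markers that entered the sums were listed, out of a slightly longer list of chosen names. Transcripts of a single exon are not counted by the rule used here, so those values of 0 do not say that the RNAs were absent. Pachytene RNP replicate 3 was the thinnest library, with 15949 spliced transcripts against a median of 23888.5. The files give no counts, so read depth was not used here. Nothing says that the replicates came from separate animals, so p-values measure the spread between these samples, which may be technical.

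The listed and unlisted lincRNA genes are described by name, structure and place, with no test. Among 143 lincRNA genes with RIKEN clone names of the kind of 1700003G18Rik and 4933431K23Rik, whose prefixes mark clone libraries that include adult testis, 75.5% were listed, against 21.4% of the other 1124. The longest transcript chain had a median of 4 exons in the listed and 2 in the unlisted genes, while the median length of the longest transcript was close (1788 and 1851 bases). A gene with more exons has more junctions by which to be listed, so the rule itself favours that difference in exons. A start within 1000 bases upstream of a protein-coding start on the opposite strand was found for 39.8% of the listed and 17.5% of the unlisted genes.

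Most listed lincRNA genes were present in few libraries. The median was 7 of 18 libraries, against 17 for protein-coding genes, with 55 genes in 1 library and 24 genes in all 18. The median level of the 251 tested genes was 3.07 FPKM (quartiles 1.14 and 6.999), against 9.59 FPKM for all 14088 tested genes, and their replicates were more spread (median SD within groups of 1.06 on the log2(FPKM + 1) scale, against 0.89). In 2.15% of the 2609 values above 0 of the tested genes, most of the FPKM came from transcripts assembled as shorter than 200 bases, and such short transcripts held 10.6% of these genes' FPKM, so single high values are given below with the length behind them. A value of 0 says that no spliced transcript was assembled, not that the RNA was absent.

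The polysome and RNP libraries of a stage were compared to ask whether lincRNA levels differed between the fractions. FPKM is scaled within each library, so this does not measure what part of an RNA lay on ribosomes. In pachytene spermatocytes 7 lincRNA genes were called higher and 1 lower in polysomes (limma, adjusted p under 0.05), which is 2.79% and 0.398% of the 251, while of all tested genes 7.15% were called higher and 0.071% lower. In round spermatids none was called higher and 1 was called lower, against 0.199% and 0.0071% of all tested genes. In elongating spermatids none was called higher and 1 lower, against 1.62% and 0.142%. The gene called lower was 1700003G18Rik at each of the 3 stages, and in round spermatids it was the only gene of 14088 called lower in polysomes.

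The lincRNA genes leaned less towards polysomes than the average gene as deposited. The median difference, polysome minus RNP on the log2(FPKM + 1) scale, was 0.70 for the lincRNA genes and 1.03 for all genes in pachytene spermatocytes, 0.03 and 0.66 in round spermatids, and 0.38 and 0.72 in elongating spermatids. Dividing the libraries by median-ratio factors took the median of all genes to 0.18, 0.07 and 0.02, and that of the lincRNA genes to 0.12, -0.12 and 0.00 in the same order. On that scale the gap between lincRNA genes and all genes was widest in round spermatids. Polysome values lay wholly above RNP values for 31, 8 and 34 lincRNA genes in the 3 stages (12.4%, 3.19% and 13.5%), against 30.5%, 14.9% and 37.9% of all genes, and wholly below for 3, 1 and 5, against 0.461%, 0.603% and 1.68%. After median-ratio scaling 12, 5 and 9 lincRNA genes lay wholly above (4.78%, 1.99% and 3.59%, against 6.74%, 4.22% and 14.4% of all genes). Wholly below were 7, 9 and 20 (2.79%, 3.59% and 7.97%, against 3.67%, 4.37% and 9.77%). The lincRNA shares were thus under those of all genes in both directions. More lincRNA genes lay below than above in round and elongating cells, as held slightly for all genes in round cells only. Since the lincRNA genes were lower and more spread, and no genes of like level were compared, these shares do not say that lincRNA genes differ from other genes of their level.

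**Figure D2:**
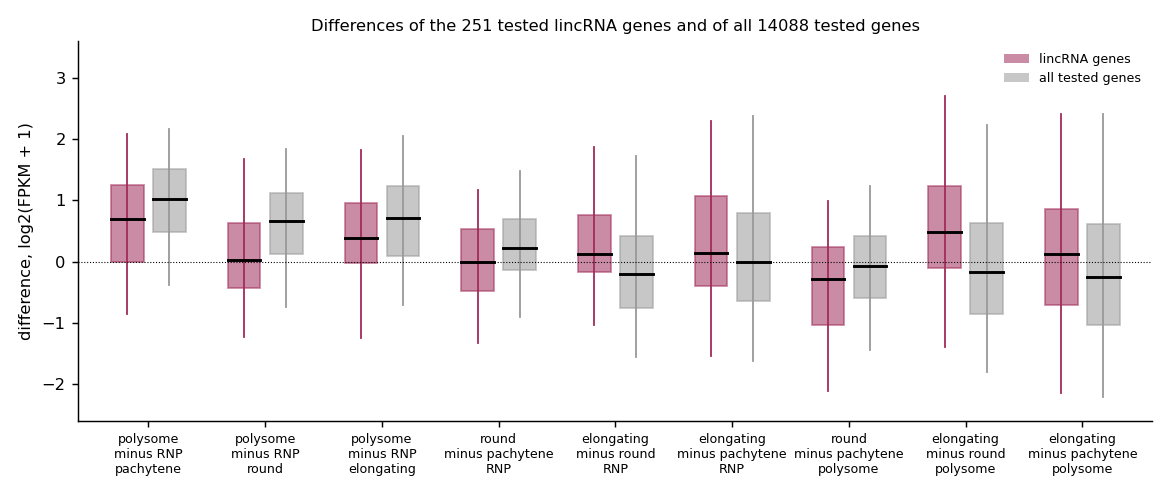
Differences on the log2(FPKM + 1) scale for the 251 tested lincRNA genes (purple) and all 14088 tested genes (grey) in 9 comparisons. Black lines are medians, boxes the middle 50% and thin lines the 5th to 95th percentiles; the lincRNA median lies below that of all genes in the 3 polysome minus RNP comparisons (0.70 against 1.03, 0.03 against 0.66 and 0.38 against 0.72) and above it in elongating minus round polysomes (0.49 against -0.16).

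1700003G18Rik was listed in all 9 RNP libraries and in none of the 9 polysome libraries. The gene (ENSMUSG00000087621.1) lies on the minus strand at chr7:123225273-123236656 in mm9, has up to 4 exons and a longest annotated transcript of 616 bases, and starts 159 bases from the start of the protein-coding gene 1110004F10Rik on the other strand. Its RNP levels were 7.62, 4.34 and 3.76 FPKM in pachytene spermatocytes, 5.76, 2.59 and 4.27 FPKM in round spermatids, and 6.54, 4.098 and 4.56 FPKM in elongating spermatids. Every RNP library thus stood above every polysome library, all of which were at 0, with little change between stages. The adjusted p of limma was 0.00911 in pachytene, 0.0376 in round and 0.00962 in elongating cells, and after median-ratio scaling 0.00410, 0.0229 and 0.00209.

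The highest transcript behind each of these values was 427 to 1020 bases long with 3 to 5 exons, and only in pachytene RNP replicate 2 did a transcript also share a junction with another gene, Sox6. No single-exon fragment lay in its exons in any of the 18 libraries, so it was in 9 RNP and 0 polysome libraries with fragments counted too. Among all 15392 listed genes, 2 were in at least 6 RNP libraries and no polysome library, of which 1700003G18Rik was 1. Without single libraries the pachytene call held throughout (highest adjusted p = 0.0424), the elongating call was lost without elongating RNP replicate 1 (0.0743), and the round call was lost in 11 of 18 cases, with an adjusted p of up to 0.201 without round RNP replicate 3.

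**Figure D3:**
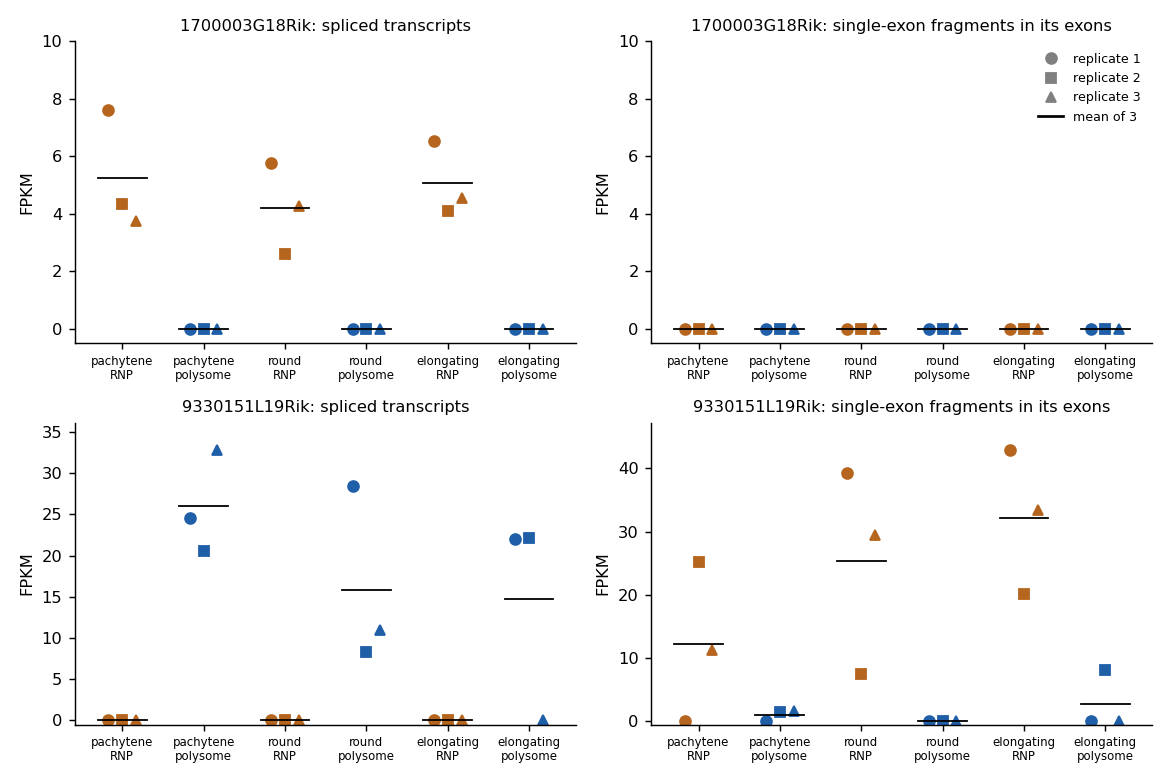
FPKM of 1700003G18Rik (top) and 9330151L19Rik (bottom) in spliced transcripts (left) and in single-exon fragments lying in their exons (right), by stage and fraction. Points are libraries and bars are means of 3; 1700003G18Rik is at 2.59 to 7.62 FPKM in RNP and 0 in polysomes with no fragments, whereas 9330151L19Rik is spliced in polysomes and fragmentary in RNP.

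9330151L19Rik showed the opposite listing, but its RNP libraries held its exons unjoined. This gene of 2 exons (ENSMUSG00000090687.1, plus strand, chr12:70298198-70300855) had spliced levels of 24.6, 20.5 and 32.8 FPKM in pachytene polysomes, 28.5, 8.25 and 10.9 FPKM in round polysomes, and 22.0, 22.1 and 0 FPKM in elongating polysomes, and was at 0 in all 9 RNP libraries. It was called higher in polysomes in pachytene spermatocytes (adjusted p = 0.0156, limma), a call that was lost after median-ratio scaling (0.0860) and without pachytene RNP replicate 3 (0.0785), pachytene polysome replicate 1 or replicate 3. In 8 of the 9 RNP libraries, however, single-exon fragments lay in its exons, and in 7 of them 1 fragment ended 1 to 11 bases before the 112-base intron and another began 0 to 3 bases after it, with none across it. Spliced transcripts and fragments together came to a median of 25.2 FPKM in RNP and 22.0 FPKM in polysomes, with ranges of 0 to 42.9 and 0 to 34.5. FPKM is already divided by length, so 2 unjoined fragments of 1 RNA add up where a joined transcript counts once. The RNP libraries held 20 fragments and the polysome libraries 3, so the RNP sums are raised and cannot be compared with those of polysomes. The spliced values of this gene thus differed between fractions, while its exons, joined or not, were found in 8 libraries of each fraction.

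The other 6 genes called higher in pachytene polysomes had no spliced transcript in the 3 pachytene RNP libraries. AA543186 had 10.8, 2.53 and 2.67 FPKM in pachytene polysomes and was listed nowhere else. Single-exon fragments lay in its exons in 7 polysome libraries, however, all 3 round polysome libraries included. They also lay in all 3 pachytene RNP libraries, at 5.01, 3.55 and 2.67 FPKM, so its exons were present in the group it was compared with. AA543186 passed the filter on low values through pachytene polysomes alone, as did Snord123. C230037L18Rik, Gm16615 and C430049B03Rik reached 1 FPKM in 5, 4 and 4 libraries, 3 of them in that group, and would not have passed without it. The values of all these genes are thus a description and no p is given for them. C230037L18Rik had 4.29, 5.76 and 3.26 FPKM, Gm16615 9.18, 3.38 and 6.60 FPKM, and Gm15728 4.97, 8.11 and 2.20 FPKM (adjusted p = 0.0276 for Gm15728, limma). The lowest were Snord123, which holds a small nucleolar RNA gene of that name, at 1.99, 1.75 and 1.86 FPKM and 0 elsewhere, and the X-linked C430049B03Rik at 1.89, 1.80 and 3.06 FPKM. C430049B03Rik fell outside the naming rule and was added after its values were seen.

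Single-exon fragments were also found in the exons of each of these 6 genes in RNP libraries. They were in 4 of 9 for AA543186, Gm16615 and Gm15728 and 1 of 9 for C230037L18Rik, Snord123 and C430049B03Rik. In pachytene RNP they gave 40.7 FPKM for Gm16615 (replicate 2) and 7.35 FPKM for C230037L18Rik (replicate 1). Gm15728 had 2.55 and 2.06 FPKM there (replicates 1 and 2) and C430049B03Rik 1.70 FPKM (replicate 2), while Snord123 had none. None of the 6 was called after median-ratio scaling or without pachytene RNP replicate 3, the thinnest library (for Gm15728, limma adjusted p of 0.320 and 0.127). At the level of the count, the 8 calls in pachytene spermatocytes fell to 1700003G18Rik alone without pachytene RNP replicate 3 (0.170% of all genes called) or pachytene polysome replicate 1 (0.292%). Without both round libraries of replicate 2 there were 20 calls (8.20%), the 8 included, against 19.3% of all genes.

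Most lincRNA genes lay in both fractions. Of the 349 listed, 242 were in both, 85 in polysomes only and 22 in RNP only (69.3%, 24.4% and 6.30%), against 91.5%, 7.90% and 0.632% of protein-coding genes, but genes of few libraries fall into 1 fraction more readily. The polysome share of a gene was the polysome mean FPKM as a percentage of the sum of both means. It sets levels scaled within each library side by side and is not a share of RNA molecules. Its median over tested lincRNA genes was 68.4% in pachytene, 54.2% in round and 63.0% in elongating cells. Over all tested genes it was 69.4%, 63.9% and 66.1%. After median-ratio scaling the medians were 51.6%, 41.7% and 47.1% for lincRNA genes and 51.5%, 50.8% and 51.2% for all genes. The gap between both sets was thus widest in round spermatids on either scale, which is a description of medians and was not tested.

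The stages were then compared within each fraction. In RNP no lincRNA gene was called between pachytene and round (0% of all genes were called, with 9 lincRNA genes, 3.59%, at an unadjusted p under 0.05, against 4.53% of all genes) or between round and elongating cells (0.0781% of all genes called higher and 0.0071% lower, with 16 lincRNA genes, 6.37%, at an unadjusted p under 0.05, against 8.70%). From pachytene to elongating RNP 1 gene was called higher and none lower, against 0.795% and 0.135% of all genes, with 33 lincRNA genes, 13.1%, at an unadjusted p under 0.05, against 16.2%. That gene was 4933431K23Rik (ENSMUSG00000086451.1, chr8:80134759-80292869, plus strand), which was at 0 in all 3 pachytene RNP libraries and rose to 24.6, 6.69 and 33.3 FPKM in elongating RNP (adjusted p = 0.0480, limma). Round RNP lay between, at 6.76, 0 and 4.04 FPKM, and elongating polysomes were lower, at 14.4, 0.544 and 3.57 FPKM. A 185-base transcript gave most of the 33.3 FPKM, and the call was lost without transcripts under 200 bases (0.0729), at a pseudocount of 0.1 (0.0650) and in 13 of 18 omissions of single libraries, with an adjusted p of up to 0.205 without elongating RNP replicate 1.

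In polysomes 2 lincRNA genes were called lower in round than pachytene cells and none higher, against 0.135% and 0.0355% of all genes. They were AA543186 and C230037L18Rik, for which no p is given as above, both without a spliced transcript in the 3 round polysome libraries. Single-exon fragments lay in the exons of AA543186 in all 3, at 8.76, 2.03 and 5.08 FPKM. For C230037L18Rik they lay in round polysome replicate 1, at 1.77 FPKM. The call of C230037L18Rik was lost after median-ratio scaling and in 15 of 18 omissions of single libraries. Between round and elongating polysomes no lincRNA gene was called, while 0.44% of all genes were called higher and 0.0852% lower, and 41 lincRNA genes had an unadjusted p under 0.05, 33 of them higher (13.1%, and 3.19% lower, against 8.63% and 7.03% of all genes). The median over the 251 lincRNA genes was 0.49 higher in elongating polysomes on the log2 scale and that over all genes was 0.16 lower. Without both round libraries of replicate 2, which held the most Sertoli markers of the round libraries, the medians were 0.24 and -0.02. From round to elongating RNP the medians were 0.13 and -0.20, and 0.00 and -0.05 without those libraries.

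From pachytene to elongating polysomes 3 lincRNA genes were called higher and 9 lower (1.20% and 3.59%), against 3.19% and 2.92% of all tested genes. Those called higher were Wbscr25, D830044I16Rik and the X-linked C330013F16Rik. The 9 called lower were AA543186, A030009H04Rik, 4932415G12Rik, C230037L18Rik, 1110019D14Rik, 2900076A07Rik, C430049B03Rik, Snord123 and 2610507I01Rik, of which 1110019D14Rik, 2900076A07Rik, C430049B03Rik and 2610507I01Rik fell outside the naming rule. AA543186 and Snord123 passed the filter through pachytene polysomes alone, and C230037L18Rik, C430049B03Rik, 2900076A07Rik and 2610507I01Rik would not have passed it without that group. Elongating polysome replicates 1 and 2 held single-exon fragments in the exons of AA543186, at 7.68 and 7.39 FPKM. Without pachytene polysome replicate 2 none of the 12 was called and 1 other gene, 5033403F01Rik, was (1.01% of all genes called). After median-ratio scaling 6 of the 12 were called (4.004% of all genes), and without both round libraries of replicate 2 all 12 and 13 others (10.2% of the lincRNA genes, against 16.5% of all genes).

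Wbscr25 had the largest log2 difference of the 12. This gene on chromosome 5 had 12.4, 0 and 1.64 FPKM in pachytene polysomes, 21.7, 0 and 3.76 FPKM in round polysomes, and 126, 71.2 and 76.4 FPKM in elongating polysomes, a log2 difference between pachytene and elongating of 4.77 ± 1.32 (SE, adjusted p = 0.0439, limma). The call was lost at a pseudocount of 0.1 (0.141) and in 11 of 18 omissions of single libraries, with an adjusted p of up to 0.190 without pachytene polysome replicate 2. RNP libraries gave the same order, at 15.5, 0 and 4.87, then 41.1, 0 and 10.8, and then 100.4, 63.3 and 116 FPKM. Elongating libraries were all above the rest, and in each earlier group replicate 1 was highest, replicate 3 next and replicate 2 at 0. That is also the order of the summed elongating markers in those groups (3206, 155 and 905 FPKM in pachytene RNP for replicates 1 to 3, 5677, 238 and 3374 FPKM in round RNP), and the part of elongating cells in the earlier values was not tested.

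D830044I16Rik, named Cdiptos and typed protein-coding in RefSeq, starts 251 bases from Cdipt, a phosphatidylinositol synthase gene, on the opposite strand of chromosome 7. It was listed in all 18 libraries, with 31.1, 11.7 and 7.84 FPKM in pachytene polysomes and 226, 76.7 and 141 FPKM in elongating polysomes, a log2 difference of 3.15 ± 0.82 (SE, adjusted p = 0.0346), lost without any 1 of the elongating polysome libraries and without pachytene polysome replicate 2 or 3 (up to 0.129). Its round values were 52.2, 5.53 and 26.3 FPKM in polysomes and 111, 12.2 and 45.4 FPKM in RNP, again with replicate 1 highest and replicate 2 lowest. After median-ratio scaling it was the one gene still called higher (0.0322), while Wbscr25 (0.0582) and C330013F16Rik (0.0553) were not. C330013F16Rik was at 0 in pachytene cells and had 13.8, 3.26 and 7.57 FPKM in elongating polysomes (0.0340), most of the 13.8 from a 191-base transcript, without which and its like it was not called (0.0999), and without elongating polysome replicate 1 its adjusted p was 0.127.

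Genes that fell were at their highest in pachytene polysomes. A030009H04Rik, on chromosome 11 and called Rnf227 in RefSeq, had 15.5, 26.8 and 8.38 FPKM there, 3.22, 5.50 and 4.22 FPKM in round polysomes and 2.55, 2.33 and 2.02 FPKM in elongating polysomes, a log2 difference of -2.30 ± 0.53 (SE, adjusted p = 0.0216). 4932415G12Rik, which starts 177 bases from the centrosomal gene Ccdc41, had 15.7, 26.1 and 9.77 FPKM, then 3.98, 6.01 and 5.37 FPKM, and then 3.29, 2.78 and 3.08 FPKM, a log2 difference of -2.07 ± 0.47 (0.0206). For both, the 3 pachytene polysome libraries lay above all 6 spermatid polysome libraries, and both calls held after median-ratio scaling (0.0415 and 0.0472). Both were lost without pachytene polysome replicate 2 (0.114 and 0.114) and without any 1 of the elongating polysome libraries, and that of A030009H04Rik also at a pseudocount of 0.1 (0.121). Sertoli markers, summed over 18 genes, were at 483 to 2012 FPKM in pachytene polysomes and 115 to 144 FPKM in elongating polysomes, and their part in these differences was not tested.

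**Figure D4:**
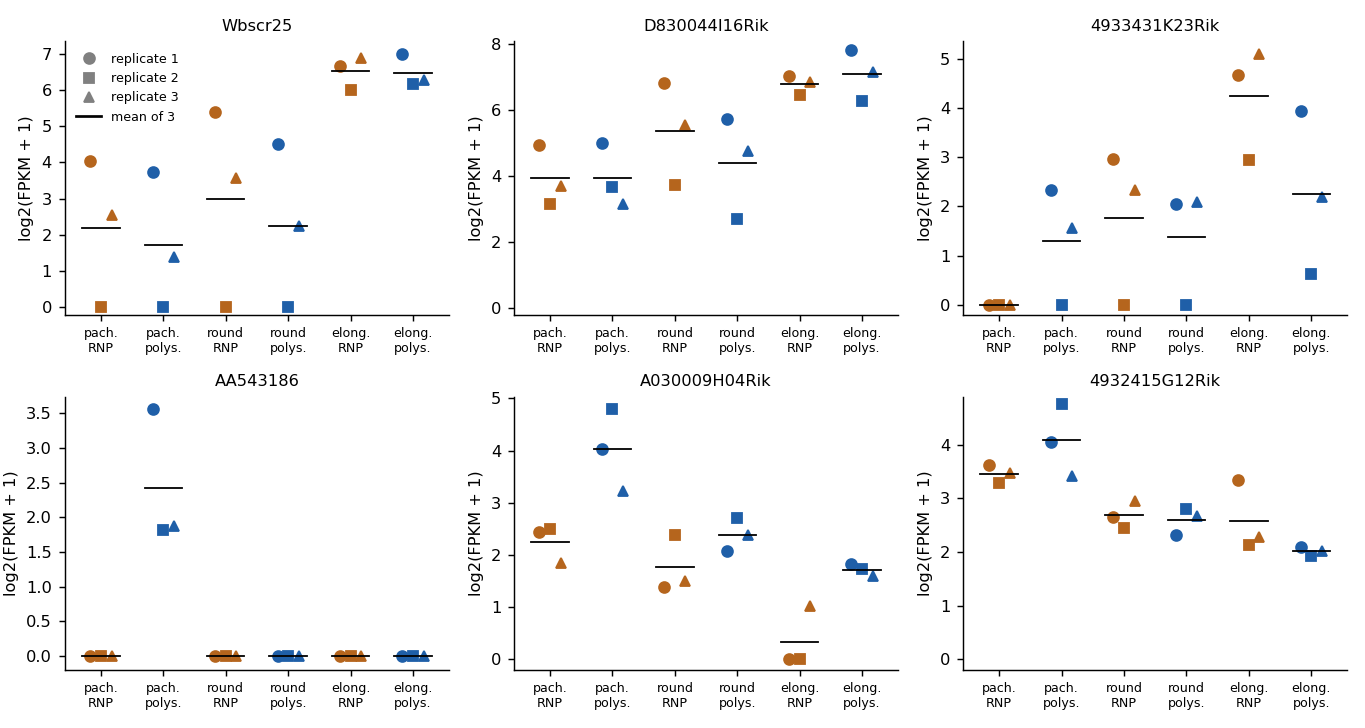
Levels of 6 lincRNA genes from spliced transcripts, without single-exon fragments, as log2(FPKM + 1), in the 18 libraries by stage and fraction (brown for RNP, blue for polysome). Points are libraries, shapes are replicate numbers and bars are means of 3; Wbscr25, D830044I16Rik and 4933431K23Rik are highest in elongating cells, with replicate 2 lowest in the round groups, and AA543186, A030009H04Rik and 4932415G12Rik in pachytene polysomes.

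Whether the fraction difference itself changed with stage was tested with a moderated F test over both changes. No lincRNA gene passed (limma, adjusted p under 0.05) and 10 of 251 had an unadjusted p under 0.05 (3.98%, against 2.95% of all genes), while 0.0142% of all genes passed. Of the genes named for the smallest p here, AA543186, Snord123, C230037L18Rik and Gm16615 needed pachytene polysomes to pass the filter. Gm15728, which did not, had an adjusted p near 1. A polysome preference seen in pachytene cells and not in round cells was therefore not shown to differ between those stages for any lincRNA gene.

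The highest group mean of a tested lincRNA gene fell in elongating polysomes for 88 genes (35.1%), pachytene polysomes for 78 (31.1%), elongating RNP for 34 (13.5%), round polysomes for 23 (9.16%), pachytene RNP for 17 (6.77%) and round RNP for 11 (4.38%). Among all tested genes the shares were 26.6%, 31.96%, 6.38%, 25.5%, 3.85% and 5.78% in the same order. This difference in shares was not tested, and round polysome replicate 2, with 112 lincRNA genes listed and a Sertoli marker sum of 3118 FPKM, enters the means of its group. Listing in a single stage was found for 39 lincRNA genes in pachytene, 27 in elongating and 15 in round cells (11.2%, 7.74% and 4.30%). For protein-coding genes the numbers were 204, 256 and 375 (1.42%, 1.78% and 2.60%), without a test. Only 2610507I01Rik and 2900076A07Rik were listed in at least 4 of 6 libraries of 1 stage, pachytene, and in none of the others. With single-exon fragments counted, 2610507I01Rik was in 7 polysome and 2 RNP libraries, so it was not limited to pachytene cells.

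The lincRNA gene with the highest mean level was 2900053A13Rik on chromosome 8, which RefSeq names Pet100, a factor of cytochrome c oxidase assembly, and types as protein-coding. It had 130, 42.3 and 42.5 FPKM in pachytene RNP, 428, 268 and 95.7 FPKM in pachytene polysomes, 131, 91.8 and 127 FPKM in round RNP, 174, 36.7 and 218 FPKM in round polysomes, 118, 122 and 102 FPKM in elongating RNP, and 222, 200.3 and 142 FPKM in elongating polysomes. The fractions overlapped in pachytene and round cells but not in elongating cells, and no difference passed (lowest unadjusted p in pachytene, adjusted p = 0.0902). Of the 349 listed genes, 15 match a protein-coding gene in RefSeq, 12 of them among the 251 tested, Tdrd5 (a tudor-domain protein of germ granules) and Bbip1 (of the ciliary BBSome) included, so the annotation type is not a test of coding. RefSeq types 276 as lncRNA and 7 as transcribed pseudogenes, and 47 had no match by symbol or synonym.

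Of the other most abundant genes, 1700023L04Rik had 233, 167 and 159 FPKM in elongating polysomes, against 93.0, 2.11 and 43.5 FPKM in round and 60.7, 18.1 and 17.5 FPKM in pachytene polysomes, and the elongating and round libraries did not overlap (adjusted p = 0.209 between them). 4930455B14Rik was higher in polysomes than RNP in every pachytene library, at 189, 61.6 and 52.5 against 38.4, 11.6 and 19.9 FPKM (0.115), and Gm16677, 69 bases from Entpd4, spanned 5.70 to 84.2 FPKM over the 18 libraries. 1700001G11Rik ranged from 0 to 128 FPKM, 1700030G06Rik, 8 bases from the replication gene Orc5, from 2.06 to 129 FPKM, Gm16159 from 0 to 145 FPKM (126 of the 145 from a 185-base transcript) and Bbip1 from 0 to 67.1 FPKM. 1700030C12Rik went the other way in pachytene cells, at 28.1, 4.81 and 52.2 FPKM in RNP and 0 in the 3 polysome libraries (0.105). None of these 8 genes passed in any of the 9 comparisons.

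Speer7-ps1 reached the second highest mean through 1 value. It had 1042 FPKM in round RNP replicate 3 from a single transcript of 140 bases and 134 FPKM in round RNP replicate 1 from one of 706 bases, and at most 40.3 FPKM elsewhere, with 0 in 11 libraries. Very short assembled transcripts receive high FPKM for few reads, so this value is not comparable with the others.

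Among lincRNAs known from other tissues, Tug1, which is conserved in mammals and needed for male fertility in mice, was listed in all 18 libraries. It had 26.0, 37.4 and 14.8 FPKM in pachytene polysomes and 12.3, 9.78 and 3.74 FPKM in pachytene RNP, without overlap (log2 difference 1.53 ± 0.46 SE, adjusted p = 0.0528, not past the threshold). Polysomes also lay wholly above RNP in round cells (12.7, 15.7 and 16.1 against 9.30, 8.38 and 6.88 FPKM) and in elongating cells (19.5, 13.9 and 12.9 against 6.29, 5.26 and 8.72 FPKM), as for 14.9% and 37.9% of all genes. After median-ratio scaling the fractions of Tug1 overlapped at each stage, at 9.70 to 24.2 against 7.92 to 14.4 in pachytene, 9.81 to 12.9 against 10.1 to 10.96 in round and 10.48 to 14.6 against 9.11 to 11.2 in elongating cells. 1700020I14Rik, known as Cyrano, which directs the decay of a microRNA, stayed between 3.34 and 12.4 FPKM in all 18 libraries with overlap between all groups.

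Of the imprinted cluster on chromosome 12, Mirg and Rian, hosts of microRNA and small nucleolar RNA genes, were listed and Meg3 was not. Mirg was in 17 libraries with a median of 5.54 FPKM, and its highest value, 42.1 FPKM in elongating RNP replicate 1, rested on a 147-base transcript. Rian was in 6 libraries at up to 8.03 FPKM, none of them elongating. Pvt1, the neighbour of the Myc oncogene, had 10.7, 6.06 and 19.1 FPKM in elongating RNP against 5.13, 0 and 2.38 FPKM in pachytene RNP (adjusted p = 0.244).

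Dleu2, host of a microRNA cluster, had 23.1, 5.91 and 6.47 FPKM in elongating RNP against 0, 1.68 and 1.57 FPKM in polysomes (adjusted p = 0.135). Single-exon fragments lay in its exons in 6 RNP and 8 polysome libraries, and with them it was in all 9 libraries of both fractions. Sox2ot, which spans the gene of the stem cell factor Sox2, was at 0 in pachytene RNP and had 189, 4.21 and 8.32 FPKM in elongating RNP (0.0694), but the 189 FPKM came mainly from a 103-base transcript with an exon of 1 base, and the highest polysome value, 51.8 FPKM, from a 140-base one. Miat was listed in 3 polysome libraries at 1.48 to 3.20 FPKM and Rmst in 4 libraries at up to 3.39 FPKM. With single-exon fragments counted, Miat was in 6 RNP and 8 polysome libraries, so it was not limited to polysomes. Sox2ot was in 7 RNP and 9 polysome libraries when counted in that way. Xist, the RNA of X inactivation, its antisense Tsix, and Airn, Six3os1 and C130071C03Rik had no spliced transcript in any library. H19, Malat1, Neat1 and Mir17hg have another type in this annotation and were not members.

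**Figure D5:**
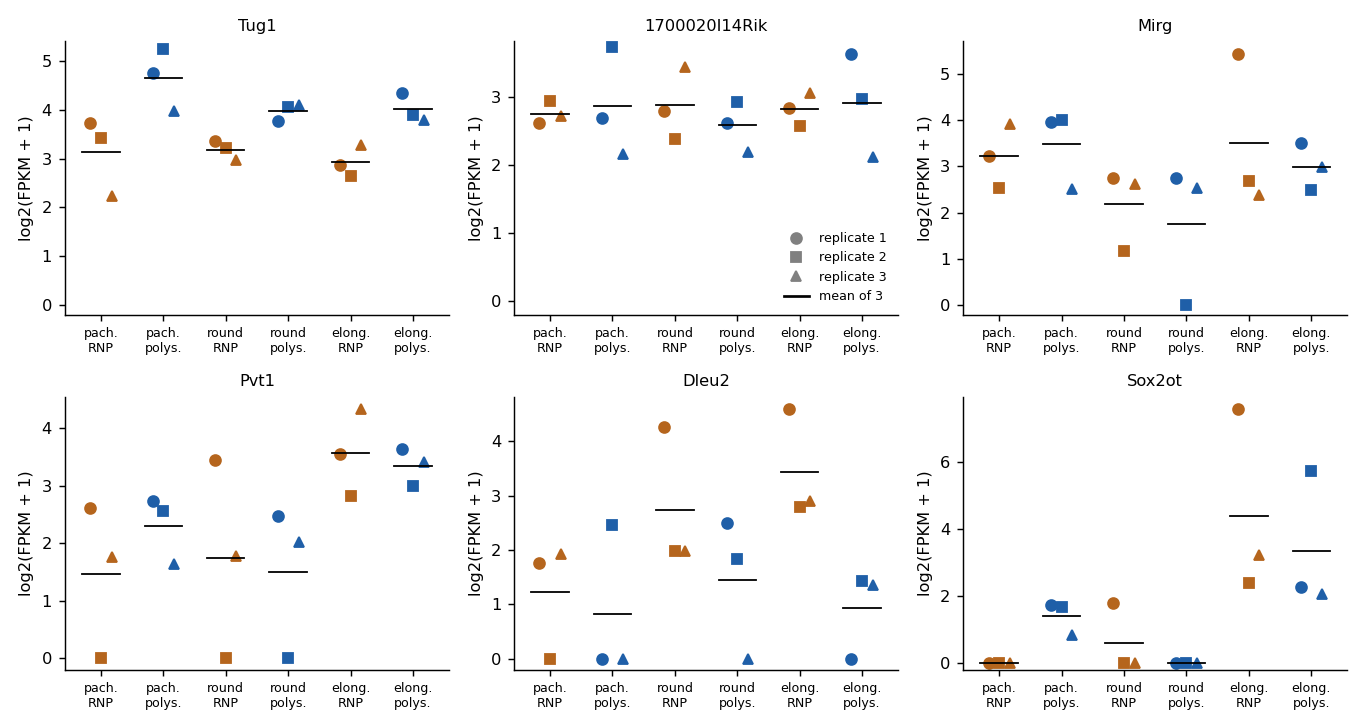
Levels of 6 known lincRNA genes, as log2(FPKM + 1), in the 18 libraries by stage and fraction (brown, RNP; blue, polysome). Points are libraries, shapes are replicate numbers and bars are means of 3; Tug1 lies higher in polysomes at every stage without overlap as deposited, though not after median-ratio scaling, 1700020I14Rik (Cyrano) spans 3.34 to 12.4 FPKM, and the topmost points of Mirg and Sox2ot rest on transcripts of 147 and 103 bases.

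The X chromosome is silenced in pachytene spermatocytes. Of its 41 lincRNA genes 14 were listed (34.1%, against 27.3% of the 1226 others), and 7 of these were tested. None was in more than 8 libraries, where the median of all listed lincRNA genes was 7. C430049B03Rik was in all 3 pachytene polysome libraries and no pachytene RNP library, and 5730405O15Rik averaged 14.7 FPKM in pachytene RNP through 1 library. B230206F22Rik, named Ftx in RefSeq, a gene of the X inactivation centre that holds the microRNA genes Mir374 and Mir421, was in 6 polysome libraries and no RNP library, at 1.21 to 11.1 FPKM, and C330013F16Rik was in 2 round and 3 elongating polysome libraries and 1 elongating RNP library. No X-linked lincRNA gene was listed in all 3 libraries of pachytene RNP, round RNP or elongating RNP.

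For 102 of the 251 tested lincRNA genes a protein-coding gene started on the opposite strand within 1000 bases, at a median distance of 147.5 bases. The coding partner was tested in 99 pairs and had the higher mean in 86 of them (86.9%), with medians of 2.86 FPKM for the lincRNA and 15.9 FPKM for the partner. As a description over 18 libraries that share depth and stage, Spearman's correlation between the levels of both had a median of 0.21 over the pairs (quartiles -0.04 and 0.43).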

How the data were processed

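Per library, the authors cleaned the reads (FASTX-Toolkit), mapped them (TopHat2, build mm9) and built transcripts (Cufflinks) for 18 libraries (further version numbers not given in the sources used here). The paper names single-end and paired-end sequencing at separate centres, without saying which libraries had which. The deposited files give FPKM per transcript, not counts; the normalization to internal control genes described in the methods is not stated to be in them. Here gene FPKM were summed over spliced transcripts sharing a GENCODE vM1 junction. A transcript sharing junctions of several genes counted for each, and single-exon transcripts were not counted. Values were tested as log2(FPKM + 1) with limma 3.58.1 (R 4.3.3; empirical Bayes with trend, 6 groups, 18 libraries, Benjamini-Hochberg over 14088 genes); fold changes on that scale understate those of low genes. In simulated data for the pachytene fractions (13801 genes), 8 of 100 genes changed 4-fold and 65 of 100 changed 16-fold were called. The changed genes were drawn from genes of all types above a minimum mean level. The rates therefore need not hold for the lincRNA genes, which were lower and more spread.

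The lincRNA genes and lists were chosen with earlier results of these data known. Genes were named as up to 4 with the largest change per direction and comparison (adjusted p under 0.05, mean of at least 5 FPKM in the higher group, no overlap), the 12 with the highest mean, the listed known lincRNAs and up to 5 with the smallest interaction p. Samples were grouped by title. Same-numbered libraries deviated together in every pair for round polysome against RNP (lowest r = 0.204 over genes) and for round against pachytene RNP (0.117). A replicate block was taken to hold there. Elsewhere the lowest r was 0.0161 or less, but replicates 1 and 2 deviated together in some comparisons. In replicates 1 to 3, r was 0.416, 0.336 and -0.063 between the pachytene fractions. Between round and pachytene polysomes it was 0.519, 0.410 and -0.127. RefSeq names come from GRCm38.p6 by symbol.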

Additional observations from a re-analysis of the deposited data

How the results depend on the processing

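Numbers of lincRNA genes called moved with the settings. For polysome against RNP in pachytene spermatocytes, 8 genes became 1 after median-ratio scaling, 15 with a replicate block, 20 without both round libraries of replicate 2 and 13 with transcripts of at least 200 bases, a minimum chosen after seeing the data. In elongating spermatids 1 became 2 with the block and 2 without the round libraries. From round to elongating RNP 0 became 1 after scaling and 1 with the block, and from pachytene to round RNP 0 became 1 without the round libraries. From pachytene to elongating RNP the 1 gene, 4933431K23Rik, was lost at a pseudocount of 0.1 and with the length minimum, where 2 other genes, Sox2ot and Nespas, were called, and with no filter and with transcripts of 1 gene only (0 called); it was among 7 after scaling, 11 with the block and 11 without the round libraries. In polysomes, pachytene to round, 2 became 4 with no filter, 0 after scaling and 1 without the round libraries. Round to elongating polysomes went from 0 to 5 with the block, and pachytene to elongating from 12 to 6 after scaling, 24 with the block and 25 without the round libraries. The replicate block was taken to hold only for polysome against RNP in round spermatids (1 gene with and without it) and round against pachytene RNP (0). The share of all genes called moved in the same settings, for the pachytene fractions from 7.22% to 0.0860% after scaling, 13.998% with the block and 19.3% without the round libraries. The cause of these shifts was not tested.

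Omitting single libraries gave 1 to 17 genes for the pachytene fractions, 0 to 1 for round, 0 to 2 for elongating, 0 to 0 for pachytene to round RNP, 0 to 1 for round to elongating RNP, 0 to 3 for pachytene to elongating RNP, 0 to 3, 0 to 2 and 1 to 17 for the same stages in polysomes, and 0 to 0 for the change of the fraction difference with stage. Over 33 results on named genes and 813 alternatives, 711 kept direction and side of the threshold, 81 lost the call, 20 gained it and 1 reversed (1700020I14Rik, round to elongating polysomes, log2 difference from -0.034 to 0.72 over the omissions, lowest without elongating polysome replicate 1). Low lincRNAs were often listed in few libraries, so a missing call is weak evidence.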

Other observations

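Of the 918 lincRNA genes with no spliced transcript, 262 (28.5%) had a single-exon fragment at least 50% inside their exons in at least 1 library, 43 of them in at least 9 libraries. Gm16702, A630075F10Rik, Gm17644 and 1500017E21Rik had one in all 18, with a median of 464 FPKM for Gm16702 (92.5 to 1733 FPKM). Xist had fragments in 5 RNP and 2 polysome libraries, at up to 104 FPKM. These genes were chosen after their values were seen, and fragments were not tested between groups.

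A330050B17Rik held a fragment in all 9 polysome libraries and in no RNP library. On chromosome 3 it began between 35904901 and 35904932 and ended between 35904989 and 35905033, and was 59 to 115 bases long, at 172 to 9096 FPKM. So short a fragment has an FPKM that few reads can set, and the source of the difference was not tested.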
